A study of Homo sapiens with 14 samples.

Results

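The MYC, MAX and MXD network was examined in SCC23 cells, an established cell line of head and neck squamous cell carcinoma (HNSCC). Its members here were the 10 genes MYC, MYCN, MYCL, MAX, MXD1, MXD3, MXD4, MXI1, MNT and MGA, found by gene name among the 59471 gene names in the count files. Polyadenylated RNA was sequenced in 14 libraries from 2 experiments. KMT2D-WT cells had received a control guide against LacZ. Cells of KO1 and of KO2, both KMT2D-KO, were edited with CRISPR/Cas9 and sorted by GFP, with no cloning of single cells described. Cells were kept in high glucose (+Glc) or deprived of glucose for 6 h (-Glc), and each glucose condition held 3 KMT2D-WT and 4 KMT2D-KO libraries, labelled as 2 from each line. No source states whether libraries of 1 experiment came from separate cultures, so the p-values measure the spread between these libraries, which may be partly technical.

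MYC, MYCN and MYCL are transcription factors that bind DNA only as dimers with MAX. Such dimers sit at E-boxes, recruit acetyltransferases and elongation factors, and drive genes of ribosome assembly, nucleotide synthesis and cell growth. MXD1, MXI1, MXD3, MXD4 and MNT compete for the same MAX and the same sites but recruit SIN3 and histone deacetylases, and MGA, the largest partner of MAX, works within a Polycomb complex named PRC1.6. MYC is often increased in HNSCC, whereas MXD1 is known from differentiating squamous epithelium.

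Total counts ranged from 15669154 to 62968057 per library. In experiment 2 each +Glc library (4 in all) had its read pairs counted mate by mate, whereas the other 10 held single reads, so that within experiment 2 glucose cannot be told apart from the way of counting. Of 10 squamous markers, 9 reached at least 1 CPM (counts scaled to a library's total) in every library (summed level 1085 to 3638 CPM), whereas the 5 leukocyte markers together stayed between 0.224 and 0.907 CPM. The 6 fibroblast markers were low but their sum moved with genotype. It was 5.76 to 7.09 CPM in KMT2D-WT and 12.5 to 26.7 in KMT2D-KO +Glc cells, and 3.26 to 5.58 and 7.37 to 14 CPM in -Glc cells. COL1A1 had the highest level of any of them (16.0 CPM), and PDGFRB, DCN and LUM stayed below 1 CPM in every library. Of the 4 endothelial markers, PECAM1, VWF and KDR stayed below 1 CPM in every library, and CDH5 reached at most 4.11 CPM. Their sum was 0.422 to 1.18 CPM in KMT2D-WT and 0.304 to 4.11 in KMT2D-KO +Glc cells, and did not overlap in -Glc cells (0.388 to 0.80 and 2.19 to 3.31 CPM). The squamous sum did not overlap there either, with 1683 to 2010 CPM in KMT2D-WT and 2146 to 3638 in KMT2D-KO cells. The part of these markers in the genotype results was not tested. KMT2D itself stood at 266 to 279 CPM in KMT2D-WT +Glc cells, at 182 and 184 in KO1 +Glc and at 323 and 373 in KO2 +Glc. In -Glc cells it stood at 231 to 239 CPM in KMT2D-WT and at 19.9 to 190 in KMT2D-KO libraries. Whole-gene counts do not show a short insertion or deletion, so they do not check the edit, and WT, KO1 and KO2 are used here as the labels give them. In -Glc cells of experiment 2, the libraries labelled KO1 and KO2 differed by a chi-square of 1.78 per gene and the 2 KMT2D-WT libraries by 1.71, against 25.9 to 83.0 in the other pairs of KMT2D-KO libraries. The deposited files of both these KMT2D-KO libraries carry the name of KO2, so whether one of them is KO1 could not be settled, and no line is compared in -Glc cells of experiment 2. Results that rest on these close pairs are given below also with each pair summed into 1 sample. The KO1 -Glc library of experiment 1 stood apart, with the lowest KMT2D, MNT and MGA of all 14 libraries, and results are given with and without it where it matters.

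The E-box is shown first because it is the site at which the network's dimers meet. The letters CACGTG, which read the same on both strands, were searched in RefSeq promoter windows of GRCh38.p14 that run from 250 bases before to 50 bases after a gene's start. They were present in 2548 of all 35116 windows (7.26%) and, counted by gene, in 2396 of 27305 genes with a window (8.77%). Of the 10 members, 9 had 14 windows between them, and the letters were found in those of MXD4 and MNT. The windows of MXD1, MXI1, MXD3, MAX, MGA, MYCL and MYCN did not hold them, and no window of MYC was used here. In MXD4 the motif began 238 bases before the start (minus strand, chr4:2262330-2262359) and in MNT 193 bases before it (minus strand, chr17:2401236-2401265). Among genes that MYC is known to activate, 35 of those listed had a window, and 19 of these (54.3%) held the motif. Windows of CDK4 (chr12:57752509-57752538, minus strand), ODC1 (chr2:10448024-10448053, minus strand) and HSPE1 (chr2:197500345-197500374, plus strand) are shown beside the members for comparison, with the E-box in capitals. A match is a string of letters and not a measured binding site.
MXD4: gggccgggccacCACGTGctgttgctaagc
MNT: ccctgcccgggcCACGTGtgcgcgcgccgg
CDK4: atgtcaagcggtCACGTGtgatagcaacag
ODC1: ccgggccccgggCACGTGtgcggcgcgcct
HSPE1: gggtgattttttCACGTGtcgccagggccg

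MYC had the highest mean level per kilobase of exon among the members in all 4 groups. Its mean level in KMT2D-WT +Glc cells was 17.9 ± 5.9 CPM per kb (SD, n = 3), followed by MXD3 at 8.34 ± 5.4, MAX at 7.78 ± 0.96 and MGA at 6.21 ± 2.4, and the ranges of these neighbours overlapped. MXD4 (2.95 CPM per kb), MNT (2.36), MXI1 (1.87) and MXD1 (1.58) followed, and from MGA down to MXD1 each gene also overlapped with the next. MYCL was far lower, at 0.214 ± 0.051 CPM per kb, and did not overlap with MXD1. MYCN had a count of 0 in all 14 libraries and was not tested. In KMT2D-KO -Glc cells MYC reached 147 ± 28 CPM per kb (n = 4), against 7.46 ± 0.44 for MAX, which was next in order and did not overlap with it. The remaining antagonists then lay between 3.07 for MXI1 and 5.02 for MXD3, each overlapping with its neighbour.

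**Figure D1:**
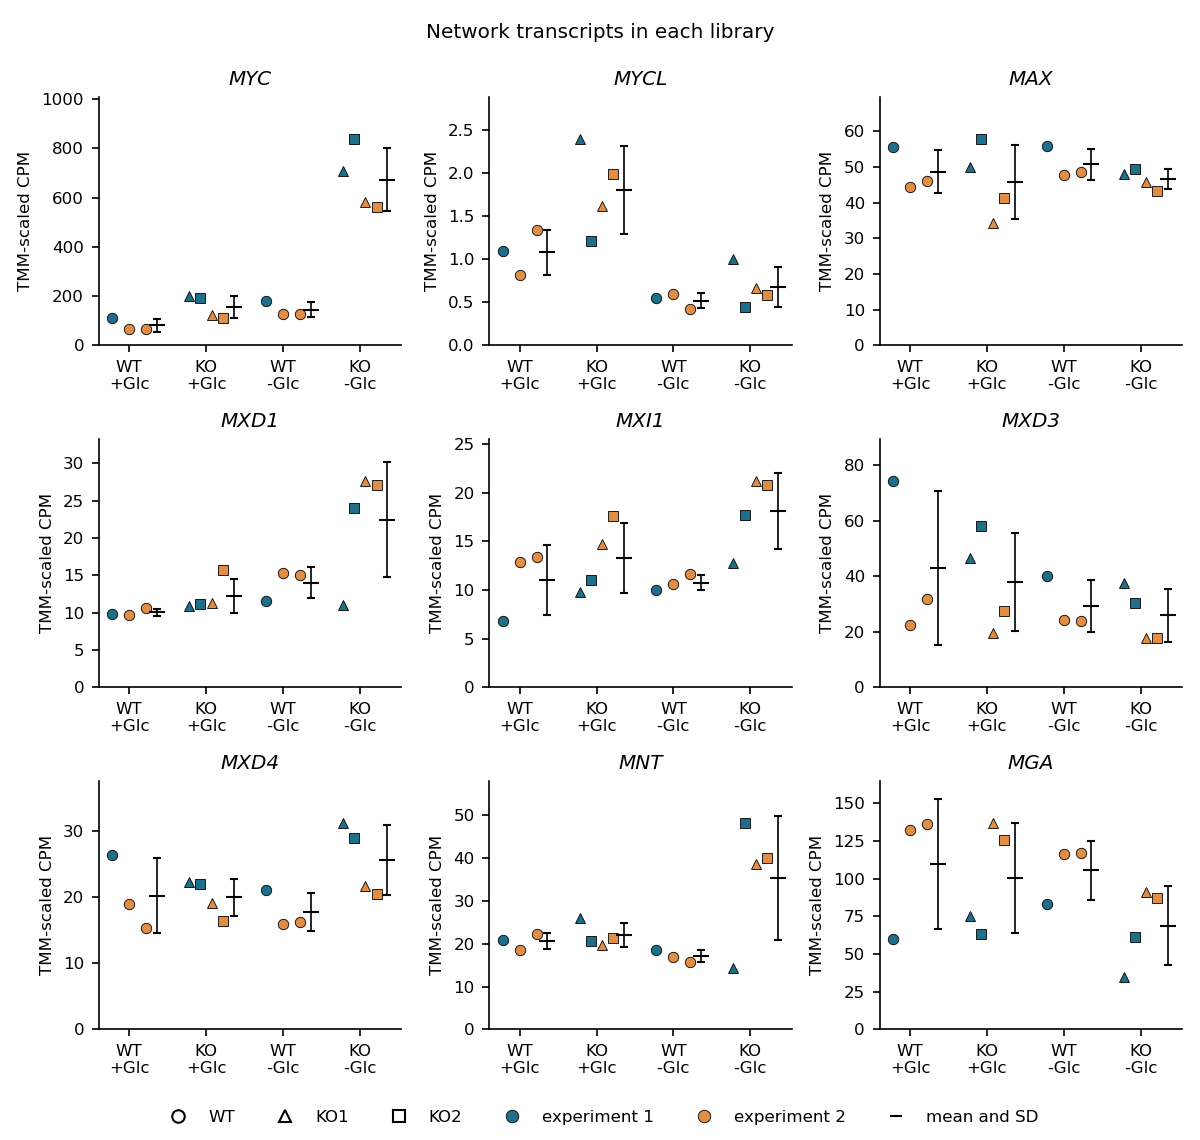
Level of each detected member in every library, in CPM scaled by TMM (vertical axes, linear, starting at 0), by genotype and glucose; circles are KMT2D-WT, triangles KO1, squares KO2, colours mark the experiment, and the bar beside each group is its mean with the SD over 3 or 4 libraries. MYC lies between 563 and 839 CPM in the 4 KMT2D-KO -Glc libraries and at 199 CPM or below in the 10 others, while MAX stays between 34.2 and 57.9 CPM throughout.

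The first comparison asked how loss of KMT2D bears on the network while glucose is present. MYC, on chromosome 8 of GRCh38 from 127735434 to 127742951 (plus strand), stood at 113 CPM in the KMT2D-WT library of experiment 1 and at 66.0 and 67.0 CPM in those of experiment 2. Among KMT2D-KO cells, experiment 1 gave 199 CPM for KO1 with 191 CPM for KO2, and experiment 2 gave 122 and 113 CPM. Every KMT2D-KO library therefore exceeded the KMT2D-WT libraries of its own experiment. The log2 fold change was 0.82 ± 0.08 (SE, adjusted p = 0.00016, edgeR, 3 against 4 libraries), or 1.76-fold. It was 0.79 within experiment 1 and 0.82 within experiment 2, and 93.8% of the 14134 genes with at least 1 CPM had a smaller increase. Without the term for experiment the value was 0.94 and no longer passed (adjusted p = 0.12).

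MYC was the only one of 9 members tested that changed in +Glc cells, while 24.7% of all genes did. MXI1, an MXD family member, had a log2 fold change of 0.42 ± 0.14 (adjusted p = 0.055), MXD1 0.32 ± 0.15 and MXD3 -0.33 ± 0.16. For MAX the value was -0.17 ± 0.11, and for MXD4, MNT and MGA values lay between -0.06 and 0.07. MYCL, with 25 to 117 reads per library, had 0.73 ± 0.31 (adjusted p = 0.12).

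Both KMT2D-KO lines had the higher MYC in +Glc cells. The log2 fold change against KMT2D-WT was 0.85 ± 0.07 in KO1 (adjusted p = 9.5e-08) and 0.78 ± 0.07 in KO2 (adjusted p = 2.3e-07), and the lines differed by 0.07 ± 0.08 (adjusted p = 0.68). Without the term for experiment MYC passed in neither line (adjusted p = 0.28 in each, edgeR). That fit called 321 of all genes higher and 209 lower in KO1, and 315 and 261 in KO2. MAX fell in KO1 by 0.31 on the log2 scale (SE 0.09, adjusted p = 0.016) and MXD3 by 0.56 (SE 0.13, adjusted p = 0.0028), whereas in KO2 they had -0.05 and -0.14. MXD1 rose in KO2 by 0.46 (SE 0.14, adjusted p = 0.015) and MXI1 by 0.51 (SE 0.13, adjusted p = 0.0049), with 0.16 and 0.28 in KO1. Each line had 2 libraries here, and without the KO2 library of experiment 2 MXD1 had 0.20 in KO2. With 1 library left out at a time, MXI1 ranged from 0.39 to 0.61 in KO2 and MAX from -0.40 to -0.22 in KO1. In the test of KO1 against KO2 0 of the 9 members passed in edgeR (adjusted p from 0.054 for MXD3 upward, 2 with an unadjusted p under 0.05) and 0 in DESeq2, against 14.7% of all genes called (7.32% higher and 7.40% lower in KO1), so these line differences were not shown. MXD3 did pass in 6 of 14 alternatives, among them RLE scaling, no filter and halved counts. Of all genes, 32.0% were called in KO1 against KMT2D-WT and 34.6% in KO2 (18.0% higher).

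After 6 h without glucose the genotypes lay further apart. MYC was 181 CPM in the KMT2D-WT library of experiment 1 and 127 and 126 CPM in experiment 2. Among KMT2D-KO cells, experiment 1 gave 707 CPM for KO1 with 839 CPM for KO2, and the libraries labelled KO1 and KO2 of experiment 2 gave 581 and 563 CPM. The lowest KMT2D-KO value was thus above 3 times the highest KMT2D-WT value. The log2 fold change was 2.12 ± 0.07 (adjusted p = 2.8e-05), or 4.36-fold, with 2.09 within experiment 1 and 2.18 within experiment 2. Only 5 of the 14157 genes with at least 1 CPM had a smaller p. MYC passed in all 17 alternatives, with values from 1.87 to 2.21.

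Among the MXD proteins, MXD1 was 11.6 CPM in the KMT2D-WT -Glc library of experiment 1 and 15.3 and 15.1 CPM in experiment 2. It was 24.0, 27.7 and 27.0 CPM in 3 KMT2D-KO -Glc libraries but 11.1 CPM in KO1 of experiment 1, so that the groups overlapped through that library. Its log2 fold change was 0.73 ± 0.23 (adjusted p = 0.033). MXI1 was 10.0, 10.6 and 11.6 CPM in KMT2D-WT and 12.8, 17.7, 21.2 and 20.8 CPM in KMT2D-KO libraries. MXI1 did not overlap between genotypes and rose by 0.77 ± 0.13 (adjusted p = 0.0024). Of the 9 members, 2 lay wholly above KMT2D-WT and 0 wholly below, where 16.3% and 18.9% of all genes did. MXD4 was 21.0, 16.0 and 16.3 CPM in KMT2D-WT and 31.3, 29.0, 21.7 and 20.5 CPM in KMT2D-KO libraries. Its groups overlapped across experiments but not within either one, with a log2 fold change of 0.42 ± 0.10 (adjusted p = 0.010).

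MNT, which represses MYC targets in most cell types, was 18.6, 16.8 and 15.8 CPM in KMT2D-WT -Glc libraries. It was 48.2, 38.6 and 40.0 CPM in 3 KMT2D-KO -Glc libraries and 14.4 CPM in KO1 of experiment 1, below all KMT2D-WT libraries. Its log2 fold change was 1.04 ± 0.35 (adjusted p = 0.045). About 12.2% of its exonic bases are shared with the antisense gene AC006435.1, and the counts do not separate strands.

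MXD3 and MGA fell. MXD3, an MXD protein known from S phase, stood at 40.2, 24.2 and 23.8 CPM in KMT2D-WT -Glc libraries and at 37.5, 30.3, 17.9 and 17.9 CPM in KMT2D-KO libraries, lower within each experiment, with a log2 fold change of -0.37 ± 0.12 (adjusted p = 0.035). Of its exonic bases, 40.2% are shared with PRELID1 or RAB24, so its counts are uncertain. MGA stood at 83.0, 116 and 117 CPM in KMT2D-WT and at 34.9, 61.5, 91.3 and 87.0 CPM in KMT2D-KO libraries, again lower within each experiment, with -0.57 ± 0.17 (adjusted p = 0.028). MGA has 17651 exonic bases, and in this comparison long genes had lower values as a class, with a median log2 fold change of -0.25 at 16000 bases or more and 0.28 below 2000. With an offset for exonic length MGA had -0.33 (adjusted p = 0.051) and MXD3 -0.29 (adjusted p = 0.057), and MXD3 did not pass in 9 of 17 alternatives. MAX, the shared partner, had -0.16 ± 0.07 (adjusted p = 0.073), and MYCL 0.31 ± 0.37.

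In all, 7 of 9 members tested changed in -Glc cells, 5 of them higher and 2 lower, where 50.8% of all genes changed. With each close pair of experiment 2 summed, MYC alone remained called (2785 genes in all), MXI1 had 0.74 (adjusted p = 0.069) and MNT 0.97 (adjusted p = 0.24). Without the KO1 -Glc library of experiment 1 the 7 members and MAX were called, where 6136 of 16739 genes were higher and 6312 lower. Without the KO2 library of that experiment 6 members were called, where 4548 of 16715 genes were higher and 4647 lower. Without any 1 KMT2D-WT -Glc library, or either KMT2D-KO -Glc library of experiment 2, only MYC, MXI1 and in most cases MXD4 were called. In these fits 3105 to 3307 of all genes were higher and 2926 to 3094 lower. With 1 of the 7 libraries left out, MXD1, MXD3 and MGA thus lost the call in 5 cases each and MNT in 6. Scaling by library size alone moved the median of all genes to -0.25 (2726 higher and 6295 lower, in place of 4342 and 4179), and under it MXD1 (0.48), MXD4 (0.17) and MNT (0.79) kept their direction but did not pass.

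**Figure D2:**
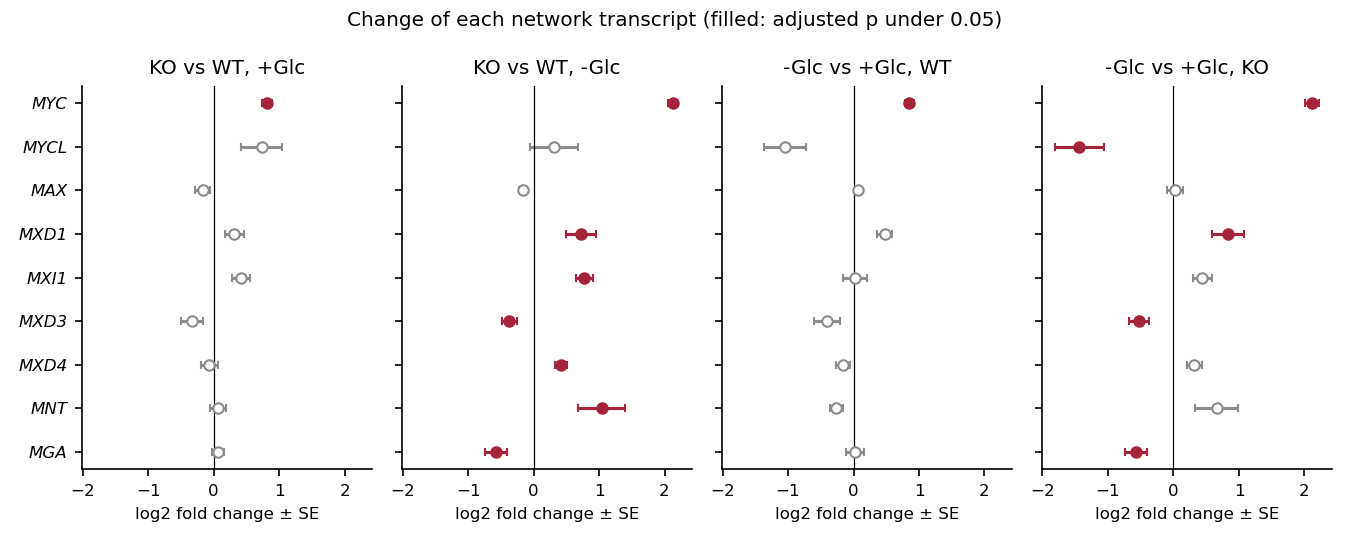
Log2 fold change of each detected member (horizontal axes, with the SE of the edgeR fit) in the comparisons of genotype at +Glc and -Glc and of glucose in KMT2D-WT and KMT2D-KO cells; filled points passed an adjusted p under 0.05. MYC is filled in all 4 panels, at 0.82, 2.12, 0.85 and 2.11, and the antagonists are filled mainly in the panel of genotype at -Glc.

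MYC was higher in -Glc than in +Glc cells of both genotypes, though in experiment 2 glucose cannot be told apart from the way of counting. In KMT2D-WT cells the log2 fold change was 0.85 ± 0.06 (adjusted p = 0.015), with 0.68 within experiment 1 and 0.93 within experiment 2. MYC was the only member of 9 to pass there (14.7% of all genes), and with the close pair summed it did not (0.85, adjusted p = 0.17), nor without any 1 of the 4 KMT2D-WT libraries of experiment 2 (adjusted p from 0.060 to 0.16). With the pair summed or 1 of these 4 libraries left out, 0 of all genes were called higher and at most 1 lower. MXD1 had 0.48 ± 0.12 (adjusted p = 0.0501) and did not overlap between glucose conditions. MYCL had -1.04 ± 0.32 and MNT -0.26 ± 0.10, both lower in every -Glc library without passing. Of the 9 members, 2 lay wholly above the +Glc libraries and 2 wholly below, where 9.54% and 12.2% of all genes did. MXI1 and MGA went up within experiment 1 (0.55 and 0.47) and down within experiment 2 (-0.24 and -0.20), where MGA passed once either KMT2D-WT library of experiment 1 was left out (-0.20 and -0.19).

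In KMT2D-KO cells MYC was higher after deprivation by 2.11 ± 0.11 (adjusted p = 0.00013), or 4.32-fold, with 1.98 within experiment 1 and 2.28 within experiment 2. MXD1 rose by 0.83 ± 0.25 (adjusted p = 0.039). MYCL fell by 1.44 (SE 0.37, adjusted p = 0.024), at levels of 8 to 16 reads per -Glc library, MXD3 by 0.53 (SE 0.15, adjusted p = 0.034) and MGA by 0.57 (SE 0.17, adjusted p = 0.039). These 5 of 9 members compare with 30% of all genes. With the close pair summed MYC alone was called, where 1101 of 16542 genes were higher and 1181 lower. Long genes were lower as a class here too (median -0.24 at 16000 bases or more, 0.52 below 2000), and MGA and MXD3 did not pass with the offset for exonic length (adjusted p = 0.053 and 0.072) or with RLE scaling (0.052 and 0.054). With 1 of the 8 libraries left out, MYCL and MGA passed in 3 cases, MXD3 in 2 and MXD1 in 1. MNT and MXI1 had 0.66 ± 0.34 and 0.44 ± 0.14. Without the KO1 -Glc library of experiment 1 MNT passed with 0.97 (adjusted p = 0.0019).

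Experiment 1 was counted alike in all of its 6 libraries, and there each line could be followed from +Glc to -Glc. MYC went from 113 to 181 CPM in KMT2D-WT (1.6-fold), from 199 to 707 in KO1 (3.55-fold) and from 191 to 839 in KO2 (4.38-fold). Over the 3 lines the log2 fold change was 1.54 ± 0.22 (adjusted p = 0.0023), and 49 of 14085 genes with at least 1 CPM had a larger increase. MXD3 fell by 0.73 (SE 0.18, adjusted p = 0.043), from 74.4 to 40.2 CPM, 46.6 to 37.5 and 58.2 to 30.3. No other member passed, against 2.40% of all genes (0.808% higher and 1.59% lower), and 4 members had an unadjusted p under 0.05. MNT went from 26.1 to 14.4 CPM in KO1 but from 20.7 to 48.2 in KO2, and MGA from 60.0 to 83.0 in KMT2D-WT but from 75.5 to 34.9 in KO1.

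Whether the effect of KMT2D loss depended on glucose was tested in 1 fit of all 14 libraries. For MYC the genotype effect was larger in -Glc cells by 1.34 ± 0.11 on the log2 scale (adjusted p = 4.5e-05), and only 6 of 14268 genes with at least 1 CPM had a smaller p. The value stayed between 1.31 and 1.39 when any 1 library was left out. MYC was the only member of 9 called, against 11.3% of all genes (4.73% higher and 6.54% lower). MNT had 1.00 ± 0.40 (adjusted p = 0.13), MGA -0.61 ± 0.22 (adjusted p = 0.10) and MXD4 0.51 ± 0.16 (adjusted p = 0.053). Without the KO1 -Glc library of experiment 1, MXD1, MXD4, MXI1, MNT and MGA were called as well, with MNT at 1.25 (adjusted p = 0.00017). More of all genes were called in that fit too, 2137 higher and 2093 lower of 18767, in place of 884 and 1221 of 18678. The counting of both mates in 4 +Glc libraries bears on this comparison. With those counts halved MYC was still called, but halving rescales whole libraries and cannot show what counting by mate did to single genes.

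The balance between MYC, MAX and the antagonists was described from levels per kilobase, with no test. Of the exonic bases of MAX 16.1% are shared with genes on the other strand, and of those of MXD3 40.2% with PRELID1 or RAB24, which limits these ratios. MYC exceeded MAX by 1.98 to 2.78 times in KMT2D-WT +Glc libraries, by 3.74 to 5.43 in KMT2D-KO +Glc and by 3.54 to 4.43 in KMT2D-WT -Glc. In KMT2D-KO -Glc libraries the ratio was 17.3 to 23.1. The 6 antagonists summed to 20.5 to 26.8 CPM per kb in KMT2D-WT +Glc and 20.9 to 24.1 in KMT2D-KO +Glc libraries. The sum was 19.8 to 21.2 in KMT2D-WT -Glc libraries. In KMT2D-KO -Glc cells it was 19.4 in KO1 of experiment 1 but 23.8 to 25.9 in the other libraries, above every KMT2D-WT -Glc library. The ratio of MYC to that sum was 0.645 to 0.921 in KMT2D-WT +Glc and 5.17 to 7.96 in KMT2D-KO -Glc libraries. Within the sum, the share of MGA was 22.2% to 33.6% in KMT2D-WT -Glc and 10.2% to 21.4% in KMT2D-KO -Glc libraries, and that of MXI1 7.99% to 9.94% and 11.2% to 14.9%. These are mRNA levels in bulk RNA, in which a change in the amount per cell and in the mix of cells cannot be told apart.

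**Figure D3:**
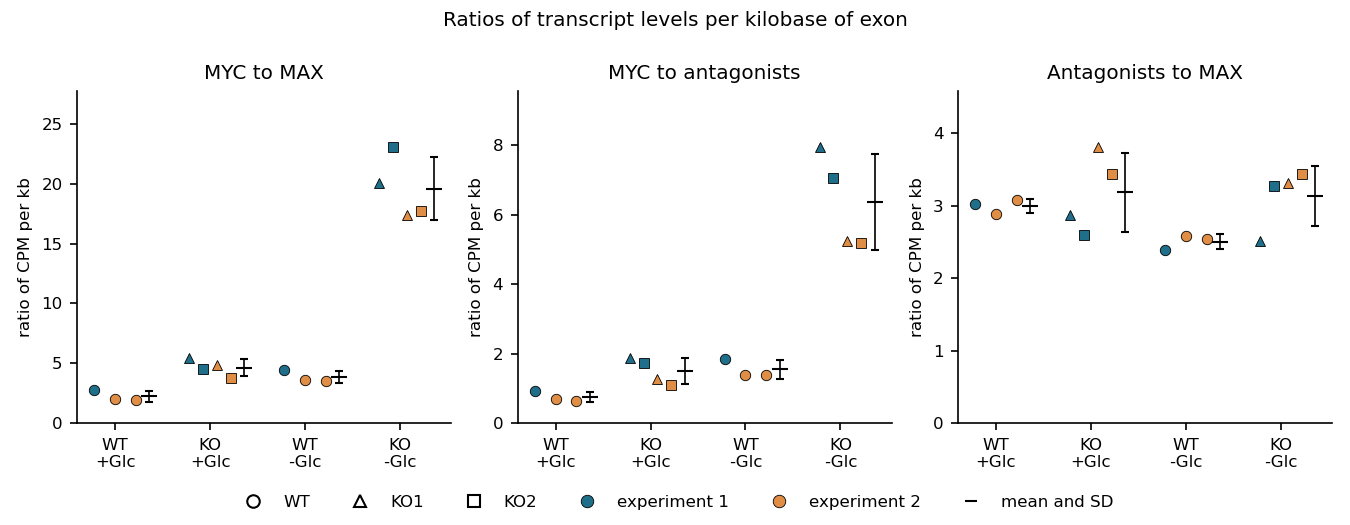
Ratios of transcript levels per kilobase of exon in every library (vertical axes, linear, starting at 0), for MYC over MAX, MYC over the summed antagonists MXD1, MXI1, MXD3, MXD4, MNT and MGA, and that sum over MAX; symbols as in the plot of levels by library, bars are mean and SD. The KMT2D-KO -Glc libraries lie at 17.3 or above for MYC over MAX and no other library exceeds 5.43, whereas the ratio of antagonists to MAX stays between 2.38 and 3.81 in all groups. That ratio is 2.38 to 2.58 in KMT2D-WT -Glc and 2.52 to 3.43 in KMT2D-KO -Glc libraries.

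Transcripts from the surroundings of MYC were read next. PVT1, a long noncoding RNA gene beside MYC, was 16.4 to 27.3 CPM in KMT2D-WT +Glc, 27.5 to 41.5 in KMT2D-KO +Glc, 21.2 to 31.5 in KMT2D-WT -Glc and 64.2 to 102 in KMT2D-KO -Glc libraries. It rose with KMT2D loss by 0.60 ± 0.11 in +Glc cells (adjusted p = 0.0056) and by 1.49 ± 0.13 in -Glc cells (adjusted p = 0.00021), and the latter held with close pairs summed (1.48, adjusted p = 0.022). The +Glc value did not pass without the term for experiment (0.68, adjusted p = 0.17), without the KMT2D-WT library of experiment 1 (0.61, adjusted p = 0.056) or in experiment 2 alone (0.61, adjusted p = 0.062). PVT1 also rose with deprivation in KMT2D-KO cells by 1.12 ± 0.13 (adjusted p = 0.0021), and the genotype effect differed between glucose conditions by 0.92 ± 0.19 (adjusted p = 0.0096), but did not pass with close pairs summed (0.90, adjusted p = 0.084) or without the term for experiment (0.91, adjusted p = 0.33). PCAT1, the other locus transcript tested, had 0.21 and 0.33 for genotype. Neighbouring genes within 5 Mb, chosen after the data had been seen, were also more often higher than lower with KMT2D loss. In +Glc cells 20 of 53 rose and 1 fell (13.0% of all genes rose and 11.7% fell), with a median of 0.47, and in -Glc cells 15 of 39 rose and 4 fell (25.9% and 24.9% of all genes), with a median of 0.33. The 687 tested genes of chromosome 8 other than MYC had a median of 0.26 in +Glc and the 569 in -Glc cells one of 0.25. No such shift was seen with deprivation, where the neighbours had medians of 0.00 in KMT2D-WT and -0.09 in KMT2D-KO cells. The number of gene copies was not measured, and its part in the genotype values was not tested.

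Genes that MYC is known to activate were read from a list of 44 that was written from general knowledge with earlier results known. In +Glc cells 20 rose and 3 fell with KMT2D loss (13.0% and 11.7% of all genes), with a median log2 fold change of 0.37 against 0.02 for all genes. NOP16, a nucleolar factor of ribosome assembly, rose by 1.43 ± 0.12 (adjusted p = 9.6e-05), and TERT, the catalytic subunit of telomerase, by 1.54 ± 0.25 (adjusted p = 0.0026). E2F2, an activator of S phase genes, fell by 0.48 (SE 0.12) and GART, an enzyme of purine synthesis, by 0.40 (SE 0.07). In -Glc cells 30 of 44 rose and 6 fell (25.9% and 24.9% of all genes), with a median of 0.45 against 0.00. With close pairs summed 16 rose and 1 fell, where 1517 of all 16867 genes rose and 1268 fell. NOP16 (1.39 ± 0.07) and TERT (1.41 ± 0.14) led again, whereas E2F2 fell by 1.52 (SE 0.33) and CAD, which starts pyrimidine synthesis, by 0.86 (SE 0.13). Scaling by library size alone gave 20 higher and 9 lower in -Glc cells, against 2726 and 6295 of all 16782 genes. In the fit without the term for experiment, 2 were called in +Glc and 14 in -Glc cells, 12 of them higher. That fit called 495 of all genes higher and 476 lower in +Glc cells, and 1706 and 1953 in -Glc cells.

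The same list moved less with glucose and little in the interaction. In KMT2D-WT cells 12 of 44 rose and 3 fell after deprivation (7.15% and 7.58% of all genes), led by ODC1, the first enzyme of polyamine synthesis (0.86 ± 0.13), and SHMT2, a mitochondrial enzyme of serine use (0.59 ± 0.06), while CCND2 fell by 0.85 (SE 0.19). With the close pair summed edgeR called 1 of 20612 genes, and without the term for experiment 2 of 17227, and no gene of the list was among them. In KMT2D-KO cells 12 rose and 4 fell (14% and 16.0% of all genes), with NME1 (0.93 ± 0.23) and SHMT2 (0.89 ± 0.21) leading, and E2F2 and CCND2 falling by 1.73 (SE 0.34) and 1.11 (SE 0.14). With the close pair summed 7 rose and 4 fell, where 1101 of all 16542 genes rose and 1181 fell. Only E2F1 (0.47 ± 0.12) and CAD (-0.61 ± 0.17) differed in the genotype effect between glucose conditions, 2 of 44 against 11.3% of all genes. Between the lines in +Glc cells 4 were higher in KO1, led by ODC1 (1.01 ± 0.12) and TERT, and 15 higher in KO2, led by CDK4, the G1 kinase, at -0.86 ± 0.10 for KO1 against KO2 (7.32% and 7.40% of all genes).

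Of 9 tested genes that MYC is known to repress, 2 passed in +Glc cells, both higher (13.0% of all genes), with a list median of 0.03 against 0.02 for all genes. NDRG1, a stress-responsive gene, rose by 2.35 ± 0.40 (adjusted p = 0.0031), with 5.61 to 7.50 CPM in KMT2D-WT and 17.6 to 50.4 in KMT2D-KO libraries, and THBS1, a secreted matrix protein, by 1.39 ± 0.13. In -Glc cells 4 of 8 rose and 1 fell (25.9% and 24.9% of all genes), with THBS1 at 2.73 ± 0.08, NDRG1 at 2.50 ± 0.21 and the cell cycle inhibitor CDKN1A lower by 1.31 (SE 0.26, adjusted p = 0.0054). GADD45A, a growth arrest gene, rose with deprivation in KMT2D-WT (0.85 ± 0.09) and in KMT2D-KO cells (2.42 ± 0.13), and these effects differed by 1.63 ± 0.16 (adjusted p = 0.00016).

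**Figure D4:**
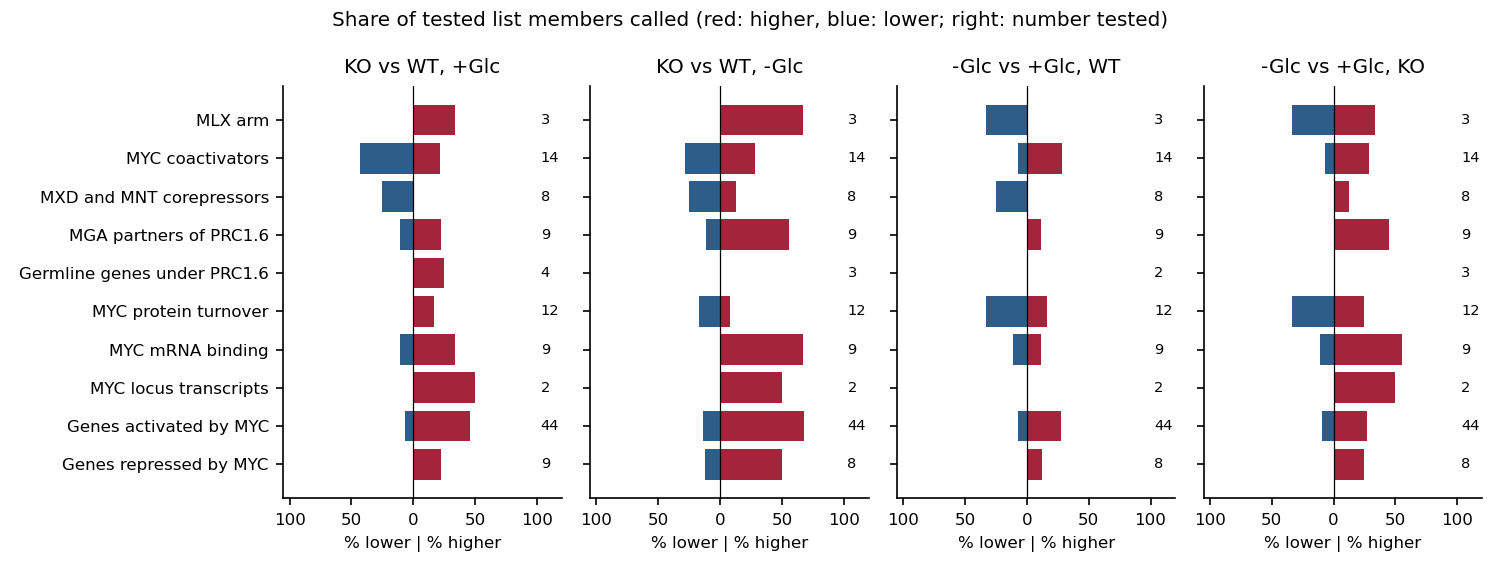
Share of the tested genes of each list that passed an adjusted p under 0.05 (horizontal axes, percent; red to the right for higher, blue to the left for lower), with the number tested at the right, in the comparisons of genotype and of glucose. Of 44 genes activated by MYC, 20 rose at +Glc and 30 at -Glc with KMT2D loss, and 12 rose with deprivation in each genotype.

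Of 14 coactivators of MYC, 3 rose and 6 fell in KMT2D-KO +Glc cells (13.0% and 11.7% of all genes), led by the ATPase RUVBL1 (0.56 ± 0.11) and the acetyltransferase KAT2A (0.32 ± 0.09) upward, and by SMARCB1, a subunit of the SWI/SNF remodeller, and TRRAP, the scaffold of acetyltransferase complexes, downward (-0.91 ± 0.07 and -0.80 ± 0.08). In -Glc cells 4 rose and 4 fell, near the 50.8% of all genes called, with RUVBL1 at 0.75 ± 0.09, RUVBL2 at 0.52 ± 0.10 and TRRAP at -0.81 ± 0.23. With close pairs summed 1 of the 14 was called, where 1517 of all 16867 genes were higher and 1268 lower. Of 8 corepressors of MXD proteins and MNT, 0 rose and 2 fell with KMT2D loss in +Glc cells (13.0% and 11.7% of all genes). In -Glc cells 1 rose and 2 fell (25.9% and 24.9% of all genes). The SIN3 subunit SAP30 fell by 0.80 (SE 0.18) in +Glc and by 1.09 (SE 0.14) in -Glc cells. SIN3B also fell in -Glc cells, where HDAC1 rose by 0.20 ± 0.06.

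Of 9 partners of MGA in PRC1.6, 5 rose and 1 fell in -Glc KMT2D-KO cells, where 25.9% and 24.9% of all genes did. RNF2, a ubiquitin ligase of Polycomb complexes, rose by 1.07 ± 0.07 (adjusted p = 9.4e-05) and RYBP by 0.85 ± 0.13, while L3MBTL2 fell by 0.42 (SE 0.09). In +Glc cells RYBP (0.66 ± 0.10) and RNF2 (0.44 ± 0.12) rose and PCGF6 fell by 0.35 (SE 0.09). With close pairs summed 1 of 9 was called in -Glc cells, where 1517 of all 16867 genes were higher and 1268 lower. Of 11 germline genes known to be silenced by PRC1.6, 4 were tested in +Glc cells and 1 was called, where 24.7% of all genes were. That gene, TAF7L, was named after its value was seen (1.84 ± 0.40, adjusted p = 0.0096). It fell short of the mean of 1 CPM set for naming genes. In -Glc cells TAF7L had 1.27 ± 0.57 (adjusted p = 0.10).

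Among binders of MYC mRNA, IGF2BP3, which stabilizes it, rose with KMT2D loss by 1.5 ± 0.15 in +Glc and 1.65 ± 0.13 in -Glc cells. IGF2BP1 rose by 0.87 ± 0.08 and IGF2BP2 fell by 0.44 (SE 0.10) in +Glc cells. Of 9 such genes 3 rose and 1 fell in +Glc (13.0% and 11.7% of all genes), and 6 passed in -Glc cells, each of them higher (25.9% of all genes). With close pairs summed 1 of the 9 passed in -Glc cells, where 1517 of all 16867 genes rose and 1268 fell. In the fit without the term for experiment, 3 passed there, where 1706 of all 16782 genes rose and 1953 fell. Of 12 genes of MYC protein turnover, 2 rose and 0 fell with KMT2D loss in +Glc cells (13.0% and 11.7% of all genes). In -Glc cells 1 rose and 2 fell (25.9% and 24.9% of all genes). STUB1, a ubiquitin ligase, rose by 0.40 ± 0.09 in +Glc and 0.85 ± 0.12 in -Glc cells. USP36, a deubiquitinase, rose by 0.29 ± 0.07 in +Glc, and FBXL14 and CIP2A fell by 0.53 and 0.50 in -Glc cells. FBXW7, a ligase subunit that marks MYC for decay, rose with deprivation in KMT2D-WT cells by 0.55 ± 0.10, and AURKA fell in both genotypes by 0.70 (SE 0.08) and 1.11 (SE 0.24). In the parallel MLX branch, which responds to glucose metabolites, MLXIPL rose with KMT2D loss by 1.67 ± 0.32 in +Glc cells, and MLX rose by 0.27 ± 0.06 in -Glc cells, as did MLXIPL (1.84), named after its value was seen. MLXIPL was low, at 0.591 to 0.903 CPM in KMT2D-WT and 1.65 to 3.13 in KMT2D-KO +Glc libraries. In -Glc libraries it was 0.181 to 0.282 and 0.628 to 1.40 CPM, which limits both of its values.

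Over the 14 libraries the 5 genes whose log2 CPM followed MYC most closely, of 14267 with at least 1 CPM, were AUNIP (Pearson r = 0.987), ZPR1 (0.984), PPDPF (0.981), OSER1 (0.981) and SMYD3 (0.979). The points share libraries, depth and groups, and this is a description. OSER1, for example, was 27.8 to 32.5 CPM in KMT2D-WT +Glc, 39.7 to 54.1 in KMT2D-KO +Glc, 42.6 to 54.9 in KMT2D-WT -Glc and 116 to 157 in KMT2D-KO -Glc libraries, highest in the group in which MYC was highest. Among the members, MXD4 (0.695) and MXD1 (0.673) came closest to MYC and MGA went most against it (-0.673).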

How the data were processed

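Polyadenylated RNA of 14 libraries was used. The authors mapped reads to GRCh38 with HISAT2 and counted them per gene name with featureCounts 2.0.3 (Ensembl 102, strand ignored), and the deposited values are raw counts per gene. In experiment 2 the +Glc libraries were counted by mate. From these counts each comparison was fitted on the whole table with edgeR (version 4.0.16, run in R 4.3.3): low counts were removed by filterByExpr at 10, libraries were scaled by TMM, and the quasi-likelihood test was adjusted by Benjamini-Hochberg and read at 0.05. The experiment, a shared batch in the labels, was a covariate, or the line where experiment 1 was fitted alone. The study's methods name DESeq2 with no covariate, so the fit without the block and DESeq2 (1.42.0) were alternatives. An SE is the log2 fold change over the square root of F. Levels are CPM from 1 TMM scaling of all 14 libraries. Depth was 15669154 to 62968057 counts per library, and counting error is only a part of the spread. The fits were tested on simulated data.

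Members and gene lists were chosen with earlier results of these data known. Named are all members, KMT2D, the 5 genes most correlated with MYC, and per list, comparison and direction at most 2 called genes with the largest change and a mean of at least 1 CPM. Other alternatives were RLE and library-size scaling, no filter, a minimum count of 50, each library left out, halved counts, close pairs summed, 1 fit of all libraries, experiment 2 alone and line as a term. The offset for exonic length, the genes near MYC, and the lists and PVT1 under the alternatives were added after seeing the data. Promoter windows are from RefSeq (GRCh38.p14). Data other than RNA-seq were not used here.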

Additional observations from a re-analysis of the deposited data

Results flagged for a closer look

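MXD1 stood at 15.7 CPM in the KO2 +Glc library of experiment 2, apart from 10.9 to 11.2 CPM in the other KMT2D-KO +Glc libraries. The gap was 0.937 of the group's range, above Dixon's 95% critical value. Without that library MXD1 had 0.20 in KO2 against KMT2D-WT, in place of 0.46. The flagged group was 1 of 18 groups tested, and chance sets apart about 1 in 20.

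The effect of KMT2D loss on MYC differed between glucose conditions by 1.34 on the log2 scale (adjusted p = 4.5e-05, edgeR), and every -Glc KMT2D-KO library lay above every other library.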

How the results depend on the processing

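Of 1180 member values recomputed under alternatives, 985 kept their direction and their side of the threshold, 100 lost and 51 gained a call, and 44 changed sign. The cause was not tested. The number of members called, of 9, was as follows. Without the replicate block it was 0 in place of 1 for genotype at +Glc and 2 in place of 7 at -Glc. For glucose it was then 0 in place of 1 in KMT2D-WT and 2 in place of 5 in KMT2D-KO. It was 0 in place of 2 in experiment 1 and 0 in place of 1 for the interaction. Over all genes these fits called 495 higher and 476 lower at +Glc, 1706 and 1953 at -Glc, and 20 and 50 in the interaction. For glucose they called 0 and 2 in KMT2D-WT, 363 and 1102 in KMT2D-KO, and 0 and 0 in experiment 1. MYC then had 0.83 (adjusted p = 0.26) in KMT2D-WT, 1.76 (0.78) in experiment 1 and 1.29 (0.18) in the interaction. With close pairs summed the number of members was 1 at -Glc, 0 in KMT2D-WT and 1 in KMT2D-KO. All genes then held 1517 higher and 1268 lower at -Glc, 0 and 1 in KMT2D-WT, and 1101 and 1181 in KMT2D-KO. The number of members was 2 at +Glc with no filter, a minimum count of 50, DESeq2, halved counts or 1 fit of all libraries. It was also 2 in KMT2D-WT with these apart from the last, with RLE or with the length offset. A minimum count of 50 gave 1 in experiment 1. The interaction gave 2 with RLE, library size, DESeq2 or the length offset and 3 with no filter. KO1 against KO2 gave 1, MXD3, with RLE, no filter or halved counts. Leaving out 1 library gave 1 to 2 at +Glc, 2 to 8 at -Glc, 0 to 4 in KMT2D-WT, 1 to 7 in KMT2D-KO, 1 to 2 in experiment 1, 1 to 6 for the interaction and 0 to 1 between lines. Over all genes, the fits with 4 in KMT2D-WT called 4740 or 4749 higher, and the fits with 0 called 0 higher. The fit with 7 in KMT2D-KO called 3173 higher and 3380 lower.

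None of the values that changed sign was called as reported, but MGA for glucose in KMT2D-WT was called with the opposite sign without the +Glc library of experiment 1 (-0.20, adjusted p = 0.024) or its -Glc library (-0.19, adjusted p = 0.025). At +Glc they were MGA without the block (-0.13) and in experiment 2 alone (-0.042), and MXD4 in experiment 2 alone (0.037). For glucose they were MXI1 (-0.033) and MGA (-0.050) without the block in KMT2D-WT, MAX with library size (-0.17) or a minimum count of 50 (-0.0090) in KMT2D-KO, and MNT with library size (-0.090) in experiment 1. In the interaction they were MAX without the block (-0.034) or with library size (-0.19), and MXD3 with RLE (0.019), DESeq2 (0.019), close pairs summed (0.015) or the length offset (0.037). In KO2 against KMT2D-WT, MAX (0.036) and MXD3 (0.0050) turned without the block. With 1 library left out, MXD4 ranged from -0.16 to 0.036, MNT from -0.00097 to 0.16 and MGA from -0.043 to 0.13 at +Glc. MXI1 ranged from -0.23 to 0.15 and MGA from -0.20 to 0.10 in KMT2D-WT, MAX from -0.070 to 0.11 in KMT2D-KO, and MGA from -0.60 to 0.20 and MNT from -0.51 to 0.52 in experiment 1. In the interaction MXD3 ranged from -0.13 to 0.14 and MAX from -0.061 to 0.12. Between lines MYCL ranged from -0.17 to 0.80, MNT from -0.089 to 0.28 and MXD4 from -0.066 to 0.28, and MAX in KO2 against KMT2D-WT from -0.15 to 0.016.

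Without the KO2 -Glc library of experiment 1 MNT had 0.74 at -Glc (adjusted p = 0.089). Library size alone moved the split of all genes from 2240 higher and 2573 lower to 1005 and 3893 for glucose in KMT2D-KO (median -0.20), from 150 and 296 to 86 and 339 in experiment 1 (median -0.17) and from 884 and 1221 to 264 and 2402 in the interaction (median -0.23). MYCN had no reads and MYCL at most 117 per library, which limits what could be detected for them.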
